A study of Mus musculus with 6 samples.

Results

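The 10 genes described here run the decision of a cell to pass through G1 or to leave the cycle. They are the D-type cyclins Ccnd1, Ccnd2 and Ccnd3, their kinases Cdk4 and Cdk6, the CIP/KIP inhibitors Cdkn1b and Cdkn1c, the INK4 inhibitors Cdkn2c and Cdkn2d, and the antiproliferative gene Btg2. They were taken by symbol, and all 10 were found among the 51733 gene symbols of the count tables. RNA was sequenced from Sox2-positive neural progenitor cells (NPCs) that were sorted from mouse neural tubes at E13.5, with 3 libraries from control embryos and 3 from Ybx1-KO embryos. Both groups had the C57BL/6 strain label, and the methods describe a Sox2-eGFP knock-in reporter for the sort. The controls were wildtype siblings, whereas the Ybx1-KO embryos carried a constitutive null allele of Ybx1, so the loss of Ybx1 was not limited to NPCs. The question was whether G1 regulators and exit genes differed between Ybx1-KO and control NPCs. Controls 1 and 2 share the first number of their titles, and Ybx1-KO libraries 1 and 2 share a different one. Control 3 has its own number and Ybx1-KO library 3 has none. No number is common to both groups, so differences tied to it cannot be told apart from genotype. The sources used here do not explain this number or state whether each library came from a separate embryo, so p-values measure the spread between these libraries, which may be technical in part.

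D-type cyclins are made in response to mitogenic signals and activate Cdk4 and Cdk6, which phosphorylate the retinoblastoma protein and so release E2F factors that switch on the genes of S phase. INK4 proteins bind Cdk4 and Cdk6 directly, whereas CIP/KIP proteins act on assembled cyclin-CDK complexes. In the embryonic brain, the length of G1 and the choice between another division and neuronal differentiation are closely linked, and Btg2 is a well-known marker of progenitors that are about to make neurons.

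The control libraries held between 20841990 and 23883542 counts on genes and the Ybx1-KO libraries between 4743279 and 13321952. Ybx1-KO library 3 stood apart, with 7.22% of its read pairs on genes, whereas the other 5 libraries had between 18.0% and 24.7%. This library had 59.5% of its pairs outside genes, beside 30.6% to 46.7% in the other 5. It had counts on 39553 genes, the most of all, beside 19649 to 30482 in the other 5. Levels are given as CPM, counts per 1000000 counts on genes, with library sizes scaled by TMM, the trimmed mean of M-values. The targeted gene Ybx1 stood at 235, 523 and 301 CPM in controls and at 124, 54.5 and 9.51 CPM in Ybx1-KO, so that all Ybx1-KO libraries were below all controls and none was at 0. Sox2, the gene of the sort reporter, ranged from 17.2 to 47.6 CPM in controls and from 23.8 to 49.8 CPM in Ybx1-KO. Control 2 differed from controls 1 and 3 in some marker genes and not in others. Eomes, a marker of intermediate progenitors, stood at 0.461 CPM in control 2 but at 52.5 and 65.9 CPM in controls 1 and 3, and at 5.69, 6.34 and 6.30 CPM in Ybx1-KO. Insm1, another gene of committed neurogenic progenitors, was alike in the 3 controls, from 67.2 to 71.8 CPM.

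None of the 10 genes passed the test between Ybx1-KO and control NPCs. In edgeR's quasi-likelihood fit of 21330 genes, no gene reached an adjusted p under 0.05 with a fold change above 1.5, so the share of genes called was 0%. The smallest adjusted p of all genes was 0.168. At an unadjusted p under 0.05, 2394 genes were counted by edgeR, and DESeq2 called 118 genes higher and 96 lower in Ybx1-KO at the adjusted thresholds, none of them among the 10. By edgeR's unadjusted p, 1 of the 10 genes was higher in Ybx1-KO (Ccnd1), beside 6.96% of all tested genes, and 1 was lower (Cdk6), beside 4.27%. No member had all Ybx1-KO libraries above all controls, beside 4.99% of all genes. In 2 members, Cdk6 and Cdkn2c, all Ybx1-KO libraries were below all controls, beside 8.17% of all genes. These counts depended on the scaling, in which Ybx1-KO library 3 had the largest TMM factor (1.51). Before TMM scaling, the 3 D-type cyclins had all Ybx1-KO libraries above all controls, beside 5.87% of all genes, and 1 member, Cdk6, had them all below, beside 5.26%. The log2 fold change of Ybx1-KO over control was above 0 in 6 members and below 0 in 4. Its median was 0.19 in the members, beside 0.31 over tested genes of any kind. A fit of protein-coding genes alone gave a median of 0.13 over its tested genes. A two-sided exact permutation test of 3 against 3 libraries cannot give a p below 0.1.

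**Figure D1:**
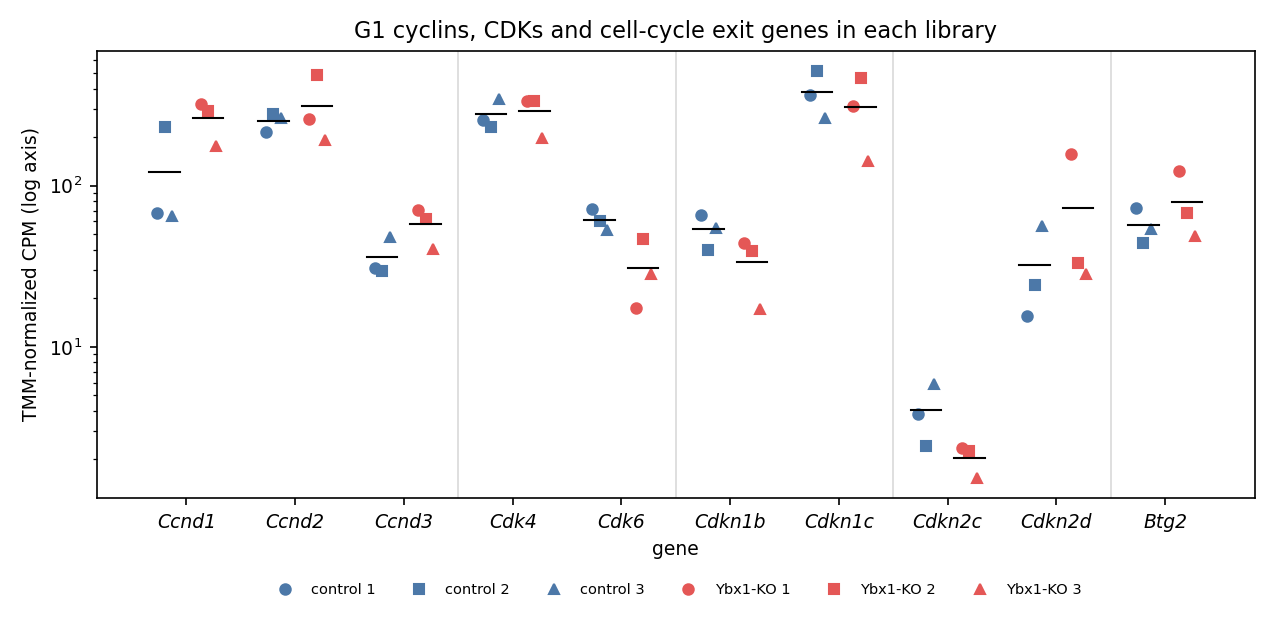
TMM-normalized CPM of each gene on a log axis, with 1 point per library (blue control, red Ybx1-KO, the shape giving the replicate) and a bar at the group mean. All Ybx1-KO points lie below all control points for Cdk6 and Cdkn2c, and the groups overlap for the other 8 genes on this scale.

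Ccnd1 encodes cyclin D1 and lies on the minus strand at chr7:144929931-144939925 of GRCm38. Its level was 67.2, 232.1 and 64.5 CPM in controls and 322.5, 288.3 and 175.6 CPM in Ybx1-KO. Controls 1 and 3 were low, control 2 was high, and control 2 exceeded Ybx1-KO library 3. Before TMM scaling and per kilobase of exons (FPKM), all Ybx1-KO libraries were above all controls, by the margin of 44.97 in Ybx1-KO library 2 over 44.8 in control 2. The means were 121 ± 96.0 CPM in controls and 262 ± 76.9 CPM in Ybx1-KO (SD, n = 3 each). The log2 fold change was 1.11 (SE 0.52), with an unadjusted p of 0.0494 and an adjusted p of 0.444 by edgeR's quasi-likelihood test. It ranged from 0.81 to 2.00 when each library was left out in turn. The value of 2.00 was that without control 2, with an adjusted p of 0.170 in edgeR. Oraov1 lies on the opposite strand and shares 1100 exon bases with Ccnd1, or 23.4% of its exons.

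Ccnd2, the gene of cyclin D2, lies at chr6:127125162-127152193 on the minus strand. It stood at 215.7, 278.9 and 262.4 CPM in controls and at 258.0, 488.4 and 192.5 CPM in Ybx1-KO. The Ybx1-KO libraries lay on both sides of the controls, and only Ybx1-KO library 2 was above them all. In FPKM before TMM scaling the controls were at 23.3, 26.9 and 25.8 and all Ybx1-KO libraries were above them, at 29.0, 38.1 and 30.8. Ccnd2 had a log2 fold change of 0.31 (SE 0.46), with an adjusted p of 0.760 in edgeR and a 95% interval from -0.67 to 1.29. Without Ybx1-KO library 2 its sign turned, to -0.23.

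Ccnd3, at chr17:47505051-47599691 on the plus strand, encodes cyclin D3. It had 31.0, 29.7 and 48.2 CPM in controls and 70.3, 61.6 and 40.6 CPM in Ybx1-KO. Libraries 1 and 2 of Ybx1-KO were above all controls, while library 3 was below control 3. In FPKM before TMM scaling it had 3.59, 3.07 and 5.09 in controls and 8.46, 5.16 and 6.97 in Ybx1-KO, with no overlap. For Ccnd3 the log2 fold change was 0.67 (SE 0.38), with an adjusted p of 0.460 in edgeR, and it stayed between 0.44 and 0.93 with any library left out. Bysl on the opposite strand shares 4.11% of the exon bases of Ccnd3.

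Cdk6 was the member with the lowest unadjusted p and lies at chr5:3341485-3531008 on the plus strand. The gene encodes a cyclin D-dependent kinase of the same kind as Cdk4. It stood at 71.1, 60.6 and 52.9 CPM in controls and at 17.4, 46.4 and 28.1 CPM in Ybx1-KO. Every Ybx1-KO library was below every control, with Ybx1-KO library 2 closest to the controls. The group means were 61.6 ± 9.13 CPM and 30.6 ± 14.7 CPM (SD, n = 3 each). The log2 fold change was -1.01 (SE 0.41, 95% interval from -1.87 to -0.14), with an unadjusted p of 0.0255 and an adjusted p of 0.443 by edgeR's quasi-likelihood test, and the exact permutation p was 0.1, the smallest possible. With each library left out in turn it ranged from -1.52 to -0.78.

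Fold changes in these data moved with the length of a gene's exons. The median log2 fold change was 1.66 among the 8743 tested genes with under 2 kb of exons and -0.24 among the 2393 genes with 8 kb or more. Among protein-coding genes alone, the kind to which the 10 genes belong, the medians were 0.74 for 2284 genes under 2 kb and -0.24 for 2359 genes of 8 kb or more. Cdk6 has 13989 exon bases, the most of the 10 genes, and its log2 fold change was -0.74 when the fit was adjusted for exon length. Cdkn2d has the fewest, 1574, and its log2 fold change was 1.37 in the adjusted fit and 1.19 in the unadjusted one. In the same adjusted fit Ccnd1 was at 1.19, Ccnd3 at 0.83, Btg2 at 0.54, Ccnd2 at 0.48, Cdk4 at 0.11, Cdkn1c at -0.29, Cdkn1b at -0.63 and Cdkn2c at -0.93 on the log2 scale. Each of the 10 genes kept its sign, and Ccnd2 and Cdk4 moved by over 1.5 times, from 0.31 and 0.06. The trend with exon length was not measured again in the adjusted fit, so how far the adjustment removed it was not tested.

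Cdk4, the other kinase of the D-type cyclins, lies at chr10:127063534-127067920 on the plus strand. Its level was 256.2, 229.5 and 342.6 CPM in controls and 334.8, 334.1 and 197.0 CPM in Ybx1-KO. The highest library was a control and the lowest a Ybx1-KO library. Cdk4 had a log2 fold change of 0.06 (SE 0.44), with an adjusted p of 0.958 in edgeR and a 95% interval from -0.87 to 0.99. Tspan31 on the opposite strand shares 641 exon bases with Cdk4, or 19.7% of its exons.

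Cdkn1b encodes the CIP/KIP inhibitor known as p27 and lies at chr6:134920401-134925513 on the plus strand. It stood at 65.9, 40.0 and 54.9 CPM in controls and at 44.2, 39.1 and 17.1 CPM in Ybx1-KO. Controls 1 and 3 were above all Ybx1-KO libraries, while control 2 was below Ybx1-KO library 1. For Cdkn1b the log2 fold change was -0.68 (SE 0.42), with an adjusted p of 0.477 in edgeR. Ybx1-KO library 3 had the lowest level, and the log2 fold change was -0.35 without it.

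Cdkn1c, an imprinted CIP/KIP inhibitor known as p57, lies at chr7:143458339-143461050 on the minus strand. It had 362.9, 513.0 and 263.2 CPM in controls and 313.5, 467.6 and 142.1 CPM in Ybx1-KO. Ybx1-KO libraries 1 and 2 lay within the range of the controls, and library 3 was below it. The log2 fold change was -0.30 (SE 0.50, 95% interval from -1.37 to 0.77), with an adjusted p of 0.786 in edgeR, and 0.05 was found without Ybx1-KO library 3. The antisense gene Gm44732 shares 625 bases, or 30.7% of the exons of Cdkn1c, and had 1556, 2421 and 1183 counts in controls and 261, 542 and 137 in Ybx1-KO.

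Cdkn2c encodes the INK4 inhibitor known as p18 and was the lowest of the 10 genes, at chr4:109660876-109667189 on the minus strand. It had 81, 53 and 118 counts in controls and 21, 22 and 11 counts in Ybx1-KO. These were 3.83, 2.44 and 5.90 CPM in controls and 2.34, 2.25 and 1.54 CPM in Ybx1-KO, so that no Ybx1-KO library reached the lowest control on this scale. In FPKM before TMM scaling the groups overlapped, with 0.826 in control 2 and 0.922 and 0.863 in Ybx1-KO libraries 1 and 3. The gap between the groups was within counting error, since the exact Poisson 95% interval was from 1.83 to 3.19 CPM in control 2 and from 1.45 to 3.58 CPM in Ybx1-KO library 1. Cdkn2c had a log2 fold change of -0.98 (SE 0.98), with an adjusted p of 0.639 in edgeR and an exact permutation p of 0.1.

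Cdkn2d, the gene of the INK4 inhibitor known as p19, lies at chr9:21288410-21291407 on the minus strand. Its level was 15.6, 24.1 and 56.5 CPM in controls and 157.8, 32.9 and 28.3 CPM in Ybx1-KO. A single library, Ybx1-KO 1, stood far above the other 5, and the other 2 Ybx1-KO libraries lay within the range of the controls. The log2 fold change was 1.19 (SE 0.61), with an adjusted p of 0.450 in edgeR. It was -0.14 without Ybx1-KO library 1. Without Ybx1-KO library 2 it was 1.51, with an adjusted p of 0.0493 in edgeR, the single setting in which any of the 10 genes was called. When the same library was left out and the set of tested genes was kept, the adjusted p was 0.107 in edgeR.

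Btg2, at chr1:134075170-134079120 on the minus strand, encodes a protein of the BTG/TOB family that restrains G1 progression. It stood at 72.1, 44.3 and 53.6 CPM in controls and at 122.5, 67.9 and 48.4 CPM in Ybx1-KO. Only Ybx1-KO library 1, which was also the highest for Cdkn2d, was above all controls. For Btg2 the log2 fold change was 0.49 (SE 0.42), with an adjusted p of 0.581 in edgeR, and it was -0.02 without Ybx1-KO library 1.

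**Figure D2:**
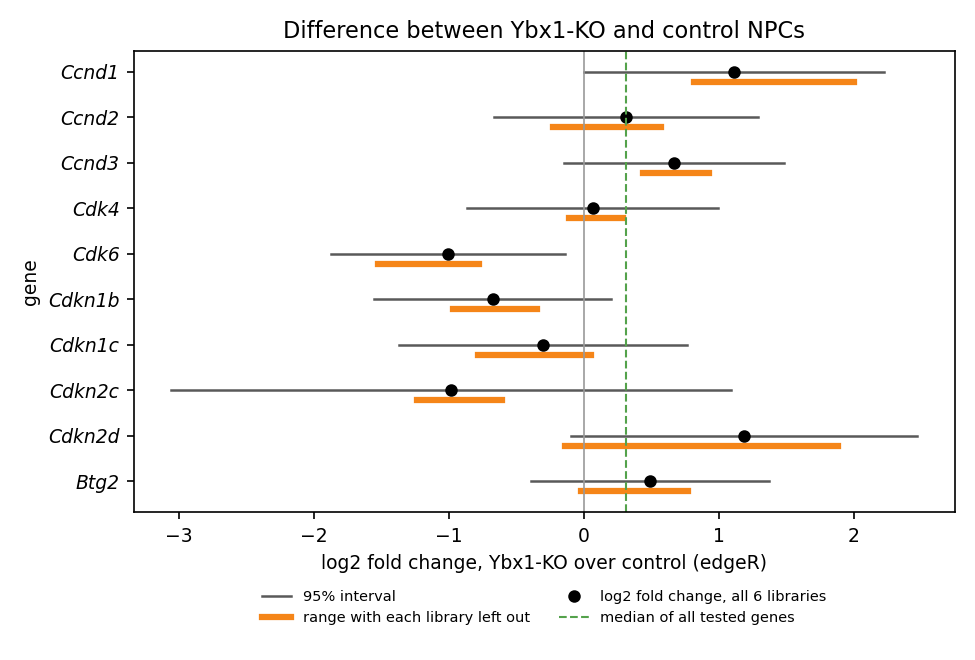
Log2 fold change of Ybx1-KO over control for each gene (black point) with its 95% interval from edgeR (grey line) and the range when each library was left out in turn (orange line). The intervals of Ccnd1 and Cdk6 alone do not cross 0, and the dashed line at 0.31 marks the median of all tested genes.

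Ratios between genes of the same family do not depend on the scaling between libraries, and they are given as values with no test. They use FPKM, the CPM before TMM scaling divided by the kilobases of annotated exons. The ratios were not adjusted for the trend of fold changes with exon length, and its part in them was not tested. Cdk6 has 13989 exon bases and Cdk4 3249, Cdkn2d has 1574 and Cdkn2c 2686, and Ccnd2 has 9409 and Ccnd1 4709. The kinase ratio, Cdk6 over Cdk4, was 0.0645, 0.0614 and 0.0359 in controls and 0.0121, 0.0323 and 0.0332 in Ybx1-KO. Control 3 was close to Ybx1-KO libraries 2 and 3, yet all Ybx1-KO ratios were below all controls. The INK4 ratio, Cdkn2d over Cdkn2c, was 6.95, 16.9 and 16.3 in controls and 114.9, 24.98 and 31.3 in Ybx1-KO, with all Ybx1-KO libraries above all controls. The low counts of Cdkn2c stand below the line in that ratio. The other ratios taken, Ccnd2 over Ccnd1, Ccnd3 over Ccnd1 and Cdkn1c over Cdkn1b, overlapped between the groups. How often ratios of other gene pairs separate the groups was not measured.

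Among the D-type cyclins, Ccnd1 made up 35.0%, 59.9% and 29.1% of the summed FPKM in controls and 65.9%, 51.0% and 59.8% in Ybx1-KO. Ccnd2 made up 56.3%, 36.0% and 59.2% in controls and 26.4%, 43.2% and 32.8% in Ybx1-KO. Ccnd2 was thus the leading D-type cyclin in controls 1 and 3, while Ccnd1 led in control 2 and, with these exon lengths, in all 3 Ybx1-KO libraries. With the longest transcript as the length, Ybx1-KO library 2 had nearly equal shares, 45.29% of Ccnd1 and 45.33% of Ccnd2. Ccnd3 was the smallest share in every library, between 4.11% and 11.7%. The CIP/KIP ratio, Cdkn1c over Cdkn1b, overlapped between the groups, with 12.3, 28.6 and 10.7 in controls and 15.8, 26.7 and 18.6 in Ybx1-KO.

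**Figure D3:**
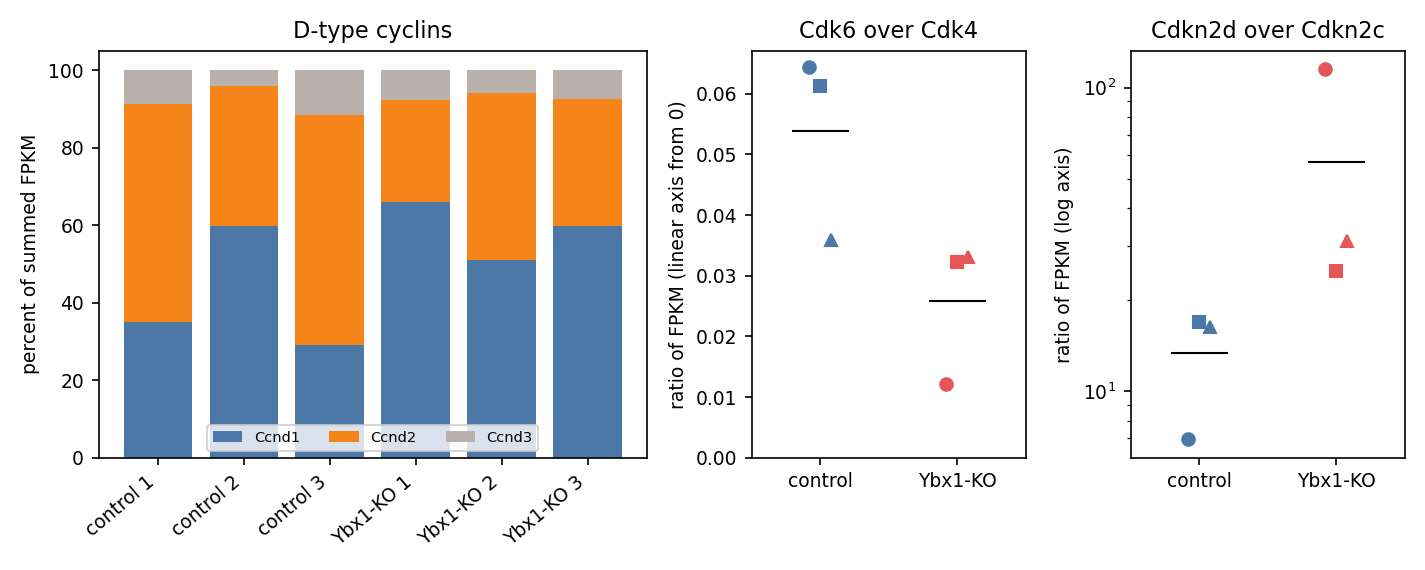
Left, each D-type cyclin as a percent of the summed FPKM of the 3 in each library. Middle and right, the ratio of FPKM of Cdk6 over Cdk4 (linear axis from 0) and of Cdkn2d over Cdkn2c (log axis), with 1 point per library (shape giving the replicate) and a bar at the group mean. With the exon lengths plotted, Ccnd1 was the largest share in control 2 and in all 3 Ybx1-KO libraries (with longest-transcript lengths Ccnd2 was level with it in Ybx1-KO library 2). Both plotted ratios separate the groups, while the other ratios taken overlapped and are not plotted.

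Per exon length, Cdkn1c was the highest of the 10 genes in both groups, with a mean of 176 ± 54.7 FPKM in controls and 145 ± 35.0 FPKM in Ybx1-KO (SD, n = 3 each). Cdk4 followed at 80.7 ± 16.8 FPKM in controls and 91.9 ± 16.6 FPKM in Ybx1-KO, and the ranges of the pair overlapped in Ybx1-KO but not in controls. In controls the next were Ccnd2 at 25.4, Ccnd1 at 23.997, Btg2 at 19.8, Cdkn2d at 19.1 and Cdkn1b at 11.3 mean FPKM, each overlapping its neighbour. Cdk6 at 4.203 and Ccnd3 at 3.92 overlapped each other, and Cdkn2c was lowest at 1.44 mean FPKM. In Ybx1-KO the order after Cdk4 was Ccnd1 at 57.8, Cdkn2d at 49.4, Ccnd2 at 32.6 and Btg2 at 30.6 mean FPKM, again with overlapping neighbours. Cdkn1b at 7.41 and Ccnd3 at 6.86 followed with overlapping ranges, then Cdk6 at 2.26 and Cdkn2c at 0.79995 mean FPKM. With the length of the longest transcript in place of all exons, Btg2 and Cdkn2d changed places in controls, Ccnd3 and Cdk6 did so in controls, and Ccnd3 and Cdkn1b did so in Ybx1-KO.

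Likeness was measured by Pearson's r of log2 CPM over the 6 libraries, against 154 genes of the other lists described here, as a description of points that share libraries and depth. Each r is the highest of 154 on 6 points, so high values can arise between unrelated genes. No background for such a highest value was taken. The gene most like Ccnd1 was Hbb-bh1, an embryonic beta-like globin (r = 0.99). Hbb-bh1 stood at 0.803, 16.2 and 0.700 CPM in controls and at 51.6, 20.3 and 9.93 CPM in Ybx1-KO, with control 2 high as for Ccnd1. Ccnd2 was most like the Hedgehog effector Gli2 (r = 0.98), and Cdk6 was most like Cdk7, the kinase that activates other CDKs (r = 0.98). Cdkn1b was most like the antiproliferative gene Tob1 (r = 0.98), and Cdkn2d most like Hes6 of the neurogenic progenitor list (r = 0.96). The nearest genes of the other members were Fbxo31 for Btg2 (r = 0.94), the neuronal gene Dcx for Cdkn1c (r = 0.92), the glial glutamate transporter Slc1a3 for Cdkn2c (r = 0.90), Hes5 for Ccnd3 (r = 0.88) and Mycn for Cdk4 (r = 0.83).

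Ybx1 belongs to the Y-box binding proteins, which are named for an element with the core CCAAT. The RefSeq promoter table of GRCm38.p6 gave 9 windows of 250 bases before the start for 7 of the 10 genes. The core was found, on either strand, in 4 of the 9 windows (of Ccnd3, Cdkn1b, Cdkn2d and Btg2), and it was in 33.9% of all 32851 promoter windows of this length. The study names the longer sequence CTGATTGG, with the core on the other strand, as a consensus bound by Ybx1. It is present at the core of Cdkn2d and not at the cores of Ccnd3, Cdkn1b and Btg2. Its share of all windows was not taken. The windows of Cdkn1b, chr6:134920151-134920400 on the plus strand, and Btg2, chr1:134079156-134079405 on the minus strand, are shown because each holds 2 copies of the core, with CCAAT in capitals.
Cdkn1b: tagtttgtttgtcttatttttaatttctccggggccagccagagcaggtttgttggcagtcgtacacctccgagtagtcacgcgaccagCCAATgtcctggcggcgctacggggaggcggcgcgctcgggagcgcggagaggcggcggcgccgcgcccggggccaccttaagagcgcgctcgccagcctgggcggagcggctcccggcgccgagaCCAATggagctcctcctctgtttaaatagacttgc
Btg2: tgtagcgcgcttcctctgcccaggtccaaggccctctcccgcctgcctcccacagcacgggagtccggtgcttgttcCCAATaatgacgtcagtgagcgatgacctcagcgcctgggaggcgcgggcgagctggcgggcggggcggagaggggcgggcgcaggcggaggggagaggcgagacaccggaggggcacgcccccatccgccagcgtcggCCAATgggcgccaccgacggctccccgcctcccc
The first base of the core lies 161 and 35 bases before the start of Cdkn1b, and 173 and 34 bases before that of Btg2. The levels of Cdkn1b and Btg2 had opposite signs of log2 fold change, and neither passed the test. The Sp1 site GGGCGG was in 7 of the 9 windows, from 6 genes, and in 32.7% of all windows. An E2F site, searched as TTTCGCGC, TTTGGCGC, TTTCCCGC and TTTGCCGC, was in none of the windows of these genes and in 1.86% of all windows. The E-boxes CAGCTG and CAGATG were also in none, beside 13.0% and 14.4% of all windows. A match of letters is no sign of binding.

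The rest of the G1/S pathway was described with fixed lists, in which no gene was called and the counts below use edgeR's unadjusted p under 0.05. Here and in the next 2 paragraphs these counts stand beside 6.96% of all tested genes higher and 4.27% lower. Of the other CDK inhibitors, 2 of 4 were tested and neither was counted in either direction. Cdkn1a, which encodes p21, stood at 18.9, 17.8 and 27.4 CPM in controls and at 5.69, 28.1 and 8.95 CPM in Ybx1-KO, where library 2 was above all controls. Its log2 fold change was -0.58 (SE 0.53), with an adjusted p of 0.607 in edgeR. Cdkn2a and Cdkn2b did not pass the filter on low values, with at most 1.54 and 0.818 CPM in any library. In the BTG/TOB family, 3 of 5 other members were tested and none was counted in either direction, with a median log2 fold change of -0.33.

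The log2 fold change was above 0 in 8 of 10 genes of the list of cyclin E, cyclin A and their partners, in 11 of 13 pocket proteins and E2F factors and in 15 of 16 S phase genes, beside 61.3% of all tested genes. It was above 0 in 12 of 16 G2/M genes, 4 of 10 genes of G1 ubiquitin ligases and 3 of 12 mitogenic factors. Of the tested genes it was above 0 in 0 of 2 other CDK inhibitors and 1 of 3 other BTG/TOB genes. In the list of cyclin E, cyclin A and their partners, 2 of 10 genes were higher and 0 lower, with a median log2 fold change of 0.35. Cdk2, the kinase partner of cyclin E, stood at 16.0, 19.2 and 12.0 CPM in controls and at 23.0, 36.6 and 25.3 CPM in Ybx1-KO, with all Ybx1-KO libraries above all controls (log2 fold change 0.85). Cks1b, a small subunit that binds CDKs, was the other, with overlapping libraries and a log2 fold change of 1.08, which was 0.40 without Ybx1-KO library 1. That of Cdk2 was 0.54 without Ybx1-KO library 2. Of the pocket proteins and E2F factors, 3 of 13 were higher (E2f1, E2f3 and E2f7, with log2 fold changes of 1.11, 0.95 and 0.98) and 1 was lower (Rbl2, a relative of the retinoblastoma protein, at -0.90). The value of E2f1 was 0.69 without control 1, and that of Rbl2 was -1.49 without Ybx1-KO library 2. The median log2 fold change of that list was 0.33. In the list of S phase genes, 6 of 16 were higher, beside 6.96% of all tested genes, and 0 lower, at a median of 0.46 on the log2 scale. Cdc6, which loads the replicative helicase, had 6.09, 14.3 and 7.55 CPM in controls and 25.2, 18.3 and 28.8 CPM in Ybx1-KO (log2 fold change 1.37, adjusted p 0.403 in edgeR). The others were Cdt1, Cdc45 and the helicase subunits Mcm2, Mcm3 and Mcm5, with log2 fold changes from 0.94 to 1.14. All Ybx1-KO libraries were above all controls in 6 of the 16, beside 4.99% of all genes, and these 6 were Cdc6, Cdc45, Mcm2, Mcm3, Mcm5 and Tyms, the last named for this count after its values were seen. The libraries of Cdt1 overlapped, and its log2 fold change was 0.46 without Ybx1-KO library 1. The summed level of the S phase list was from 735 to 914 CPM in controls and from 989 to 1186 CPM in Ybx1-KO. Of the G2/M list, 2 of 16 were higher (Aurka at 1.35 and Ccnb2 at 0.98 log2 fold change) and 0 lower, with a median of 0.32, and Ccnb2 was at 0.30 without Ybx1-KO library 2.

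Of the genes of the G1 ubiquitin ligases, which degrade cyclins and CDK inhibitors, 1 of 10 was lower (the scaffold Cul1, log2 fold change -0.99) and 0 higher, with a median of -0.26. Of the mitogenic factors upstream of the D-type cyclins, 2 of 12 were lower and 0 higher, with a median log2 fold change of -0.38. These were the immediate early genes Fos and Egr1, at log2 fold changes of -2.05 and -1.54, or -0.86 and -0.72 without control 1. Fos had 110 CPM in control 1 and between 20.7 and 23.8 CPM in the other controls, beside 11.6, 23.2 and 2.38 CPM in Ybx1-KO, so that the groups overlapped. Each of these list medians stands beside 0.31, the median over tested genes of any kind. In a fit of protein-coding genes alone that level was 0.13, and the list medians were not taken from that fit.

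**Figure D4:**
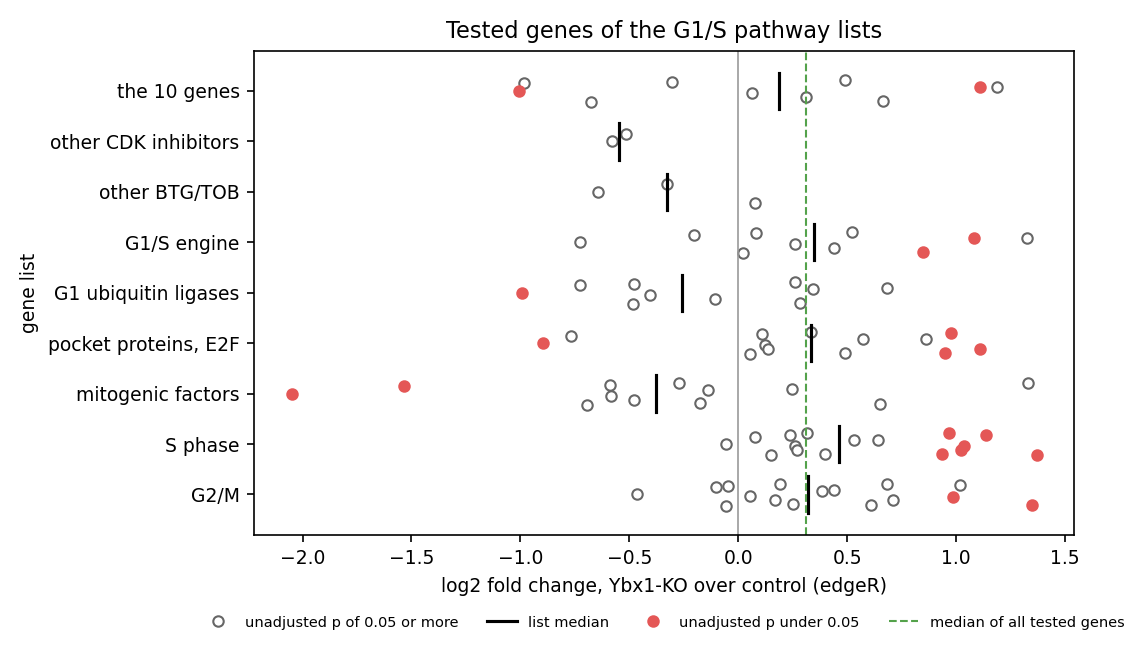
Log2 fold change of Ybx1-KO over control for each tested gene of the 10 genes and of the G1/S pathway lists, with red points at an unadjusted p under 0.05 in edgeR, a black bar at each list's median and the dashed line at 0.31 for all tested genes. The S phase list has the most red points, 6 of 16, and no gene of any list was called at an adjusted p under 0.05.

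Markers of cell state and of other cells were described in the same way, and their part in the levels of the 10 genes was not tested. In bulk samples fewer cells of a type and less RNA per cell cannot be told apart. The counts of markers by edgeR's unadjusted p, here and in the next paragraph, stand beside 6.96% of all tested genes higher and 4.27% lower. Of the neural progenitor markers, 5 of 15 were higher and 1 lower by unadjusted p (median log2 fold change 0.50), and their summed level was from 1981 to 2285 CPM in controls and from 1644 to 2745 CPM in Ybx1-KO. The log2 fold change was above 0 in 10 of these 15 markers. Nes, the intermediate filament of progenitors, had 63.0, 129 and 52.6 CPM in controls and 283, 213 and 165 CPM in Ybx1-KO, with control 2 again the highest control. Slc1a3, the marker that was lower, went the other way (log2 fold change -1.78). It had 91.8, 36.4 and 74.8 CPM in controls and 21.3, 23.5 and 14.3 CPM in Ybx1-KO, with all Ybx1-KO libraries below all controls. Of the markers of committed neurogenic progenitors, 5 of 10 were higher and 1, Eomes, was lower, with a summed level from 298 to 452 CPM in controls and from 313 to 860 CPM in Ybx1-KO. Ybx1-KO library 1, which was the highest for Cdkn2d and Btg2, was also the highest of this sum. On that list Insm1 had 69.4, 67.2 and 71.8 CPM in controls and 356, 112 and 36.9 CPM in Ybx1-KO. Of the neuron markers, 4 of 20 were lower and 1 higher, with a summed level from 5267 to 7944 CPM in controls and from 2628 to 6509 CPM in Ybx1-KO.

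Of the erythroid markers, 3 of 10 were lower and 1, Hbb-bh1, was higher, and their sum ranged from 517 to 1209 CPM in controls and from 211 to 1225 CPM in Ybx1-KO. In the mesenchyme list, 9 of 10 genes were tested, 5 were lower and 0 higher, and the summed level was 927 CPM in control 1, from 176 to 240 CPM in the other controls and from 98.5 to 170 CPM in Ybx1-KO. Endothelial markers summed to between 26.8 and 55.7 CPM in controls and between 13.7 and 82.7 CPM in Ybx1-KO, with Tie1 and Emcn at 0 in at least 1 library. Microglia and macrophage markers summed to between 10.7 and 46.2 CPM in controls and between 3.46 and 45.9 CPM in Ybx1-KO, with 6 of 8 markers at 0 in at least 1 library, and 1 marker, C1qb, was lower. In these lists 4 of 8 endothelial and 4 of 8 microglia and macrophage genes were tested, and 0 endothelial genes were counted in either direction.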

How the data were processed

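The authors mapped paired-end reads of stranded total RNA libraries, obtained counts on GENCODE genes with HTSeq 0.6.1p1, and deposited these raw counts for each library by symbol. The submitters' processing notes name the mm10 and GRCm38.p5 builds, and the aligner and the strand setting of the counting are not given in the sources used here, so counts of overlapping genes on opposite strands are uncertain. Sequencer models were named without saying which library ran on which.

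From these counts, TMM factors, CPM and fold changes were computed with edgeR 4.0.16 in R 4.3.3 (quasi-likelihood test, Benjamini-Hochberg adjustment over all tested genes, 3 control against 3 Ybx1-KO libraries, no covariate). Alternatives were limma-voom (limma 3.58.1), DESeq2 1.42.0, other scalings and filters, protein-coding genes alone, robust dispersion, libraries with a shared title number summed, exon-length offsets and leaving out each library. The study also used voom, and the run here had its own filter and exon lengths. Genes were tested at a mean FPKM above 1 in either group, with exon lengths and coordinates from GENCODE M21 on GRCm38. The annotation held 47624 of the 51733 symbols and a further 359 under an older name, and 3750 were unmatched. A count of 3, taken as the floor, was from 0.126 to 0.632 CPM, and intervals cover counting error only. Tallies of pairs assigned to no gene stayed out of the fit, and pairs outside genes were from 30.6% to 59.5% of all pairs. Scripts were tested on simulated data, and plotting used Python 3.11.15 and matplotlib 3.10.9.

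The 10 genes and all lists were chosen with earlier results of these data known. Named genes were the 10, Ybx1, Cdkn1a, genes of the other lists at an unadjusted p under 0.05 (at most 8 per list by p), and the gene most like each of the 10. Markers of the cell type checks and genes quoted for their values in single libraries were added after their values were seen.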

Additional observations from a re-analysis of the deposited data

How the results depend on the processing

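The log2 fold changes of Ccnd1, Ccnd3, Cdk6, Cdkn1b and Cdkn2c kept their sign under all 23 alternatives. The sign turned for Cdk4 without the filter on low counts (-0.0228) and with libraries that share a title number summed (-0.2175). With each library left out in turn and genes filtered again, the log2 fold change ranged from -0.23 to 0.57 for Ccnd2, from -0.11 to 0.29 for Cdk4, from -0.78 to 0.0536 for Cdkn1c, from -0.14 to 1.88 for Cdkn2d and from -0.0236 to 0.77 for Btg2. On the genes tested with all libraries, an alternative added after the data were seen, the sign turned for Ccnd2 without Ybx1-KO 2 (-0.16), Cdk4 without control 2 (-0.0529), Ybx1-KO 1 (-0.0838) or Ybx1-KO 2 (-0.0544), Cdkn1c without Ybx1-KO 3 (0.0186) and Cdkn2d without Ybx1-KO 1 (-0.0906). Over all genes, 118 were called higher and 96 lower by DESeq2, 113 and 80 without the filter, and 139 and 68 with summed libraries, while limma-voom as run here called 0 in both directions. The study reports genes called in both directions from its own voom run, and the difference was not tested. Leaving out a library gave from 0 to 531 genes higher and from 0 to 247 lower, and the genes tested with all libraries gave 29 higher and 42 lower without control 2, 17 and 11 without Ybx1-KO 1, 283 and 136 without Ybx1-KO 2, and 27 and 19 without Ybx1-KO 3. Of the 10 genes, from 0 to 1 (Cdkn2d, without Ybx1-KO 2) were called when a library was left out. At an unadjusted p, 4 of them were counted with total-count scaling, 0 with summed libraries, and from 0 (without control 1) to 4 (without Ybx1-KO 3) when a library was left out. Before TMM scaling, an alternative added after the data were seen, the groups did not overlap in 3 of the 10 genes above the controls and 1 below, beside 0 and 2 with it. The median log2 fold change of all tested genes was 0.31 and moved to 0.15 with limma-voom, 0.51 with total-count scaling, 0.70 without the filter, 0.08 with a filter on CPM, 0.13 with protein-coding genes alone, 0.47 without Ybx1-KO library 2 and 0.01 without Ybx1-KO library 3. The cause was not tested for any of these. No paired analysis was possible because the labels give the groups no shared replicate numbers. Depth limits Cdkn2c most, at 11 counts in Ybx1-KO library 3.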
